A study of Hydra viridissima with 2 samples.

Results

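The most heavily used transcription start clusters of the green hydra Hydra viridissima were examined in 2 libraries made by cap analysis of gene expression (CAGE), in which each tag marks the 5′ end of a captured RNA. One library came from aposymbiotic polyps of clone 2, which lack green algae, and the other from green, symbiotic polyps of the same clone. Both used whole animals kept at 24 °C, fed brine shrimp and harvested 2 to 3 days after a meal, and each was a pool of about 200 large polyps, so differences between animals cannot be seen. The clusters were chosen by their tags pooled over both libraries: neighbouring positions on a strand were joined where at most 20 bases lay between them, and clusters with at least 500 pooled CPM (tags scaled to a library total of 1e6) were kept. This gave 237 of 285622 clusters. The level that selected them is therefore a description and no finding.

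Green hydra carries algae of the Chlorella group inside the epithelial cells of its gastric cavity, and polyps freed of their algae can be kept as aposymbiotic strains. In animals studied by CAGE, some promoters start transcription at 1 base or a few adjacent bases and others spread their starts over a broad stretch. Many hydra messenger RNAs also receive a spliced leader at their 5′ end by trans-splicing, a feature shared with nematodes and flatworms. A CAGE tag gives the position of a captured end, and gene models were not used here, so whether a cluster is a promoter was not tested and no gene is named.

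The aposymbiotic library held 2138180 tags and the symbiotic library 3926689, so that 1 tag was worth 0.468 and 0.255 CPM. With 1 library per condition, library and condition cannot be told apart and no p-value was computed. The intervals are exact binomial ones at 95% and describe counting error alone. They treat each tag as a separate molecule, so they are too narrow where reads were copied by PCR. Neither library was checked against marker genes of alga or host, which were not analysed here.

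The 237 clusters made up 0.0830% of all clusters and held 63.8% of tags in the aposymbiotic library and 65.2% in the symbiotic one, on 68461 bases. Their pooled level ran from 512 to 26136 CPM with a median of 1539 CPM. The 36 clusters above 5000 CPM held 29.8% of all pooled tags, the 126 from 1000 to 5000 CPM held 29.6% and the 75 below 1000 CPM held 5.28%. Tags were ample in each library, with at least 881 aposymbiotic and 1521 symbiotic tags in every one of these clusters. Just inside the minimum lay clusters on scaffold_11 (515 CPM), scaffold_6 (513 CPM) and scaffold_5 (512 CPM). Just outside lay clusters on scaffold_9 (499 CPM), scaffold_1 (493 CPM) and scaffold_6 (491 CPM), so the limit cuts a continuous series.

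Most of the heavily used clusters were broad and had several peaks. The width, the distance between the 10th and 90th percentiles of tag position, had a median of 124 bases with quartiles of 72 and 183 bases, and it was over 100 bases in 144 clusters (60.8%). The median was 123 bases in each library taken alone. The dominant base, the base with the most tags, held a median of 16.9% of a cluster's tags, with quartiles of 11.6% and 23.7%. A peak was counted where a base was the largest within 10 bases on either side and reached 25% of the dominant base. By this rule 43 clusters had 1 peak, 68 had 2 peaks and 126 had 3 or more, among them 47 with at least 5. A sharp form, with a width of 10 bases or less, was found in 5 clusters (2.11%, 0.688 to 4.85).

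**Figure D1:**
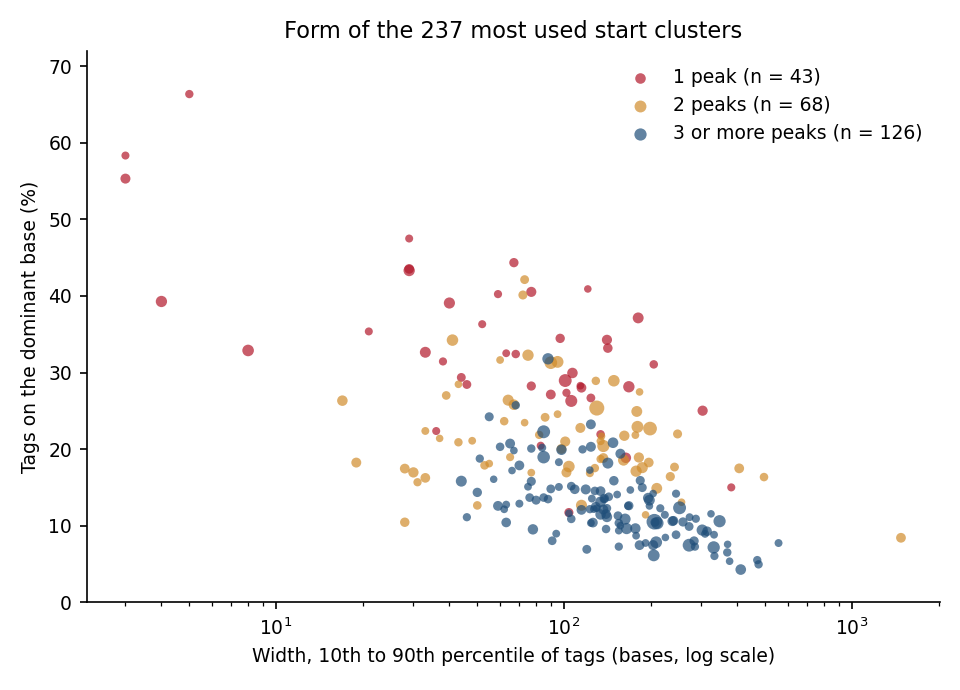
Width in bases (log axis) against the percentage of tags on the dominant base for the 237 clusters, with the point size rising with pooled CPM and the colour giving the number of peaks. The 5 sharp clusters stand alone at the left with 32.9% to 66.3% of their tags on 1 base, and most points lie near the medians of 124 bases and 16.9%.

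Form was set beside that of clusters with less use. The 413 clusters of 100 to 500 CPM had a median width of 114 bases and a median dominant share of 16.8%, and the 3576 clusters of 10 to 100 CPM had medians of 58 bases and 22.7%. Sharp clusters numbered 4 (0.969%) and 323 (9.03%) in these classes. The share with 3 or more peaks was 53.2% in the heavily used clusters, 59.6% at 100 to 500 CPM and 45.2% at 10 to 100 CPM. Having several peaks was thus not particular to the heavily used clusters. A dominant share reads too high where tags are few, so the chance that a pair of tags from a cluster falls on the same base, which lacks that bias, was also computed. Its median was 6.20% in the heavily used clusters, 6.59% at 100 to 500 CPM and 9.65% at 10 to 100 CPM, highest in the clusters of least use. A cluster with more tags is still joined over a longer stretch (median span 233, 193 and 89 bases), which touches the width and both shares, so form and depth cannot be told apart here. Clusters are not replicates, and these differences were not tested.

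The 5 sharp clusters ran from 814 to 6472 pooled CPM. Each had 1 peak, which the definitions of width and peak make nearly certain. The narrowest, scaffold_7:14532026-14532204 on the plus strand, was 3 bases wide and had levels of 2969 (aposymbiotic) and 3050 CPM (symbiotic). Its dominant base, 14532160, took 53.9% (aposymbiotic) and 56.0% (symbiotic) of the tags, and the base just 5′ of it took 28.7% and 27.5%. Most of its tags thus fell on 2 adjacent bases, in similar proportions in both libraries. The highest dominant share belonged to scaffold_9:12288420-12288495 on the plus strand, where base 12288458 held 66.3% of the pooled tags (65.2 to 67.5) and the width was 5 bases. On scaffold_1:33374203-33374292, plus strand, base 33374230 held 58.3% (56.9 to 59.7) within a width of 3 bases.

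Among the more heavily used sharp clusters, scaffold_6:13981606-13981747 (plus strand) reached 5543 and 5705 CPM, with a width of 4 bases and 39.3% of its tags on base 13981688. The most used sharp cluster, scaffold_3:11442526-11442729 on the plus strand, ranked 19th in pooled tags, was 8 bases wide and had 5119 CPM aposymbiotic and 7208 CPM symbiotic. It was named after its values were seen, to complete the 5. These were the 2 sharp clusters among the 36 above 5000 CPM, whose median width was 143 bases.

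At the other end of the range, tags were spread over long stretches or had a low dominant share. The widest cluster, scaffold_18:1786-4040 on the plus strand, spanned 2255 bases with a width of 1480 bases, and its dominant base 2760 held 8.44% of the tags. Next came scaffold_7:17327608-17328350 on the minus strand, 556 bases wide with 7 peaks, and scaffold_155:2105-2755 on the minus strand, 495 bases wide with 2 peaks. The lowest dominant share was 4.29% (4.05 to 4.55) in scaffold_7:1820027-1820985 on the plus strand, a cluster with 9 peaks and levels of 4619 (aposymbiotic) and 3960 CPM (symbiotic). The other clusters with the lowest dominant shares were scaffold_7:17627200-17627832 (4.97%) and scaffold_6:14819088-14819701 (5.38%), both on the minus strand and both with 9 peaks. In the clusters with the lowest dominant shares no base stood far above the others.

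The 10 clusters with the most tags together held 12.5% of all aposymbiotic and 13.9% of all symbiotic tags. They were 85 to 272 bases wide with dominant shares of 7.47% to 31.3%, so none was sharp and none was among the widest. The most used of all, scaffold_5:4513286-4513890 on the minus strand, had 21226 and 28810 CPM with 4 peaks over a width of 206 bases. Its dominant base 4513383 took 10.5% of the tags in both libraries, and a second peak 30 bases further 3′ took 9.08% and 8.58%. The second, scaffold_7:7415296-7415535 (plus strand), reached 20004 and 23085 CPM and was more focused, with base 7415473 taking 25.8% (aposymbiotic) and 25.2% (symbiotic). Its next peak, 39 bases 3′, held 11.3% and 10.8%, so the order and height of the peaks were nearly the same in both libraries.

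The sixth, scaffold_5:9142017-9142150 on the plus strand, had its main start on 3 adjacent bases. Its bases 9142027 to 9142029 held 14.6%, 19.3% and 29.3% of tags in the aposymbiotic library and 14.6%, 19.6% and 28.8% in the symbiotic one. The next base in tags lay 98 bases further 3′ with 6.27% and 6.37%, so a narrow start and a weaker distant one shared the cluster. The seventh, scaffold_2:7918711-7919209 on the plus strand, had 7 peaks over 272 bases, and its dominant base 7918897 held 7.47% of the pooled tags. The remaining 6 of the 10 had 2 to 5 peaks, with widths from 85 bases on scaffold_12:6809335-6809617 and scaffold_5:4512677-4513126 (both minus strand) to 252 bases on scaffold_8:6870746-6871157 (plus strand).

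The symbiotic over aposymbiotic ratio of the heavily used clusters lay close to 1. They held 63.8% (aposymbiotic) and 65.2% (symbiotic) of the tags to which CPM is scaled. That limits how far their combined ratio can depart from 1, so closeness to 1 is partly set by the scaling. With the tags outside them as total, the median log2 ratio was 0.03. By library totals the median ratio was 0.983, with 116 clusters above 1 and 121 below, and 141 of the 237 were within 1.2-fold. The log2 ratios, taken on CPM + 1, had a median of -0.02 and an SD of 0.30, against -0.01 and 0.51 over all 4226 clusters of at least 10 CPM. Lower counts add counting error to the latter, but whether that accounts for their wider spread was not tested. At the size rule of 1.5-fold, 1 cluster (0.422%) was higher and 12 (5.06%) were lower in the symbiotic library, where the background over the 4226 clusters was 9.3% higher and 12.9% lower. By class of use, 3.15% were higher and 15.3% lower at 100 to 500 CPM. At 10 to 100 CPM the shares were 10.6% and 13.1%, so the share of lower calls was largest in the middle class. At 2-fold, 0 clusters passed in either direction, against 1.77% higher and 3.17% lower in the background. The counting interval of the ratio lay above 1 in 98 clusters, below 1 in 102 and across 1 in 37. These counts, and the count within 1.2-fold, were not set beside all 4226 clusters. Intervals narrow as tags rise, so the counts are not read as a trait of the heavily used clusters. Most intervals thus left out 1 if each tag is taken as a separate molecule, and copies made by PCR would widen them. The spread between animals or libraries of a condition is not known.

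**Figure D2:**
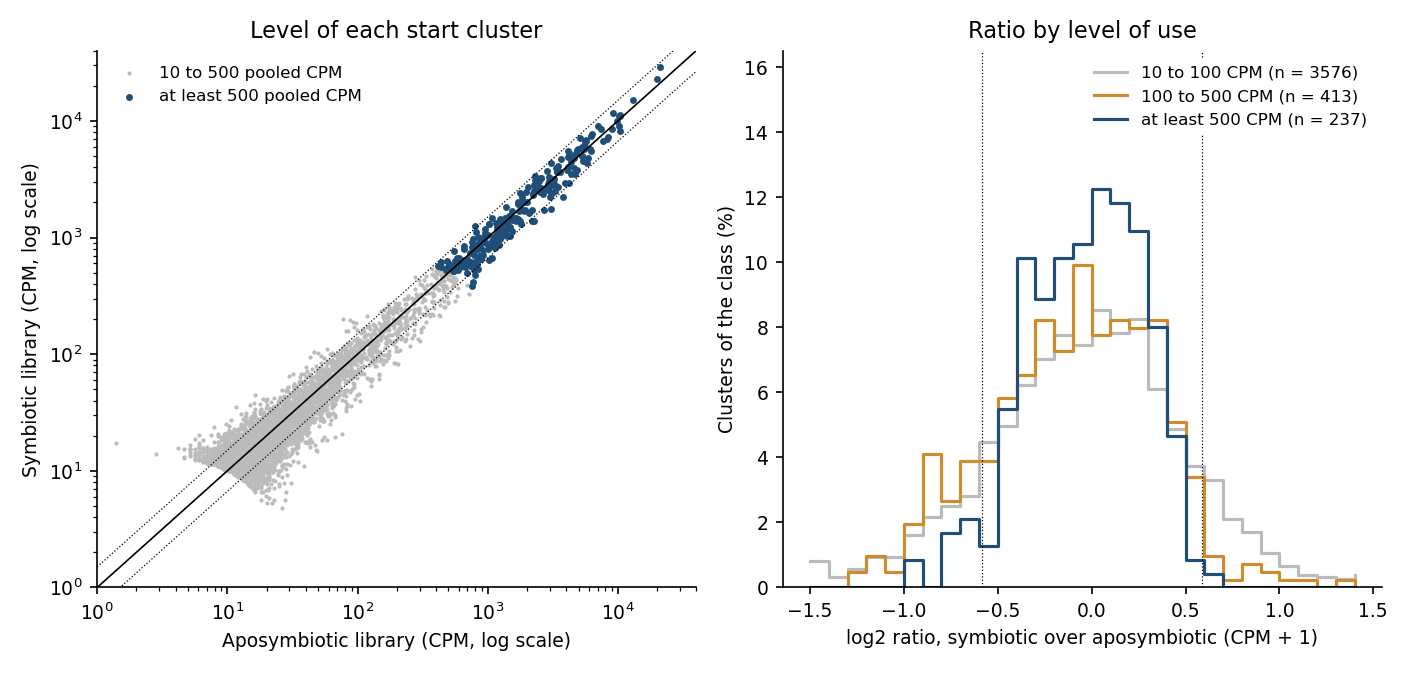
Left, CPM in the symbiotic against the aposymbiotic library for each cluster on log axes, with the line of equal level and dotted lines at 1.5-fold. Right, the percentage of clusters in each class of use by log2 ratio on CPM + 1, with values beyond 1.5 drawn in the outermost bins. The 237 clusters of at least 500 CPM lie along the line of equal level, and 224 of them fall within 1.5-fold.

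The cluster that was higher by the rule was scaffold_7:17627200-17627832 on the minus strand, the one with 9 peaks and a dominant share of 4.97%. It had 1722 aposymbiotic and 4898 symbiotic tags, 805 and 1247 CPM, a ratio of 1.55 (1.47 to 1.64). Next came scaffold_2:6739944-6740128 on the plus strand, with 2330 and 3359 CPM and a ratio of 1.44 (1.40 to 1.49). The third, scaffold_1:13715975-13716140 on the plus strand, had 3094 and 4394 CPM and a ratio of 1.42 (1.38 to 1.46), and its dominant base held 29.9% of its tags. Neither of these reached 1.5-fold.

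The lowest ratio was found in scaffold_1:34070169-34070333 on the minus strand, with 761 (aposymbiotic) and 387 CPM (symbiotic), a ratio of 0.509 (0.474 to 0.546). In scaffold_10:13365821-13366003 on the minus strand the levels were 778 and 415 CPM, a ratio of 0.534 (0.498 to 0.572). The heavily used clusters 5′ of it on the same strand, from bases 13366927 and 13367266, had ratios of 0.947 and 1.33. In scaffold_3:7752229-7752659 on the minus strand the levels were 3062 and 1774 CPM, a ratio of 0.579 (0.560 to 0.599). The sharp cluster on scaffold_1 from base 33374203 was also among the 12, with 1075 and 672 CPM, whereas the sharp clusters on scaffold_6 and on scaffold_7 from base 14532026 had ratios of 1.03 each. Of the 10 most used clusters none reached 1.5-fold, and their ratios ran from 0.783 on scaffold_1:32069580-32070073 (plus strand) to 1.36 in the most used cluster.

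More than 1 of these clusters often lay in the same short stretch. On the same strand and with at most 1000 bases between neighbours, 131 of the 237 formed 56 runs, 38 of 2, 17 of 3 and 1 of 4 clusters, and 106 stood outside runs. The strongest cluster of a run was the most 5′ one in 31 runs, the most 3′ one in 15 and one between them in 10. The pair on scaffold_5 from 4512677 to 4513890 held 216321 tags, of which the 5′ cluster had 73.3%. On scaffold_7 from 7415296 to 7416070, plus strand, a pair held 164605 tags, with 81.1% in the 5′ cluster. The run of 3 on scaffold_7 from 9737813 to 9739674, minus strand, held 127077 tags, and 68.8% were in its middle cluster, scaffold_7:9738216-9738565.

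Many of the gaps inside the runs held few tags or none. Of 75 gaps between neighbouring clusters of a run, 50 were at most 200 bases long and 21 at most 100 bases, with a median of 152 bases and a longest of 977. No tag lay in 34 of the 75. The shortest was 70 bases, although the joining rule would have allowed 21. Among clusters of at least 10 CPM, 66 adjacent pairs within 1000 bases were both heavily used, with a median gap of 143.5 bases. The 2002 other adjacent pairs had a shortest gap of 21 bases and a median of 114, and 33.4% of their gaps were under 70 bases. Clusters with more tags are joined over longer stretches, so gap length and depth cannot be told apart here. Of the 50 gaps of at most 200 bases, 30 held 0 tags of either library, which allows up to 3 tags each, while the 10 bases of a cluster next to such a gap held a median of 224 tags. Over all the heavily used clusters there were 57.3 tags per base. The gap with the most tags, on scaffold_1, held 2992, all of them in the cluster of 493 CPM that lay just outside the minimum, and the next, on scaffold_155 from 2756 to 2934, held 2833. That gap had 15.8 tags per base, more than the 11.5 of the clusters beside it, and was the only one of the 75 denser than its neighbours. In all, 5 gaps held over 1 tag per base.

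On scaffold_14 from 5200665 to 5201257, plus strand, 3 clusters followed each other with gaps of 84 and 70 bases that held 0 and 2 tags. On scaffold_11 from 12829141 to 12830204, minus strand, the run of 4 had gaps of 86, 77 and 99 bases, all with 0 tags. On scaffold_1 from 7636373 to 7637197, plus strand, 3 clusters of nearly equal aposymbiotic level (2224, 2193 and 2198 CPM from 5′ to 3′) were set apart by gaps of 81 and 83 bases with 0 and 2 tags. In these 3 runs tag-dense stretches and stretches with almost none alternated over short distances.

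Within a run the ratio was mostly lower towards the 3′ end. In 52 of 56 runs the most 3′ cluster had a lower symbiotic over aposymbiotic ratio than the most 5′ cluster. The median ratio was 1.15 in the most 5′ clusters, 0.851 in the most 3′ clusters and 0.933 in clusters outside runs. Of the 18 runs with at least 3 clusters, 12 fell at every step and 0 rose at every step. Among adjacent pairs, the 3′ cluster had the lower ratio in 61 of 66 pairs of heavily used clusters (92.4%) and in 63.6% of the 2002 other adjacent pairs. A fall of the ratio along loci was already known from these libraries when the runs were examined, and lower counts blur the order of the other pairs, so this is no independent support and the difference between the shares was not tested.

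The run on scaffold_1 from 7636373 had ratios of 1.04 (1.01 to 1.08), 0.792 (0.763 to 0.822) and 0.637 (0.613 to 0.662) from 5′ to 3′, since its symbiotic levels were 2318, 1737 and 1400 CPM. On scaffold_14 from 5200665 the ratios were 1.11, 0.912 and 0.641. The run of 4 on scaffold_11 gave 1.37, 1.32, 1.01 and 0.633. In each of these runs the intervals of the first and last cluster were far apart, and the last cluster was one of the 12 that were at least 1.5-fold lower. The last cluster was also among the 12 in runs on scaffold_10 from 13365821 (0.534, after 1.33 in the first) and scaffold_3 from 17257754 (0.609, after 1.28). So it was on scaffold_4 from 4468605 (0.624, after 1.01) and scaffold_12 from 5301879 (0.665, after 0.954). Others of the 12, such as scaffold_1:34070169-34070333 and scaffold_3:7752229-7752659, stood outside runs. The most used pair, on scaffold_5, had 1.36 (1.34 to 1.37) in its 5′ and 0.890 (0.875 to 0.905) in its 3′ cluster. Runs with a higher ratio in the 3′ cluster lay on scaffold_11 from 14061484, on scaffold_7 from 9563799 and, in 2 runs, on scaffold_155, with 3′ over 5′ quotients of 1.09, 1.04, 1.13 and 1.09.

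**Figure D3:**
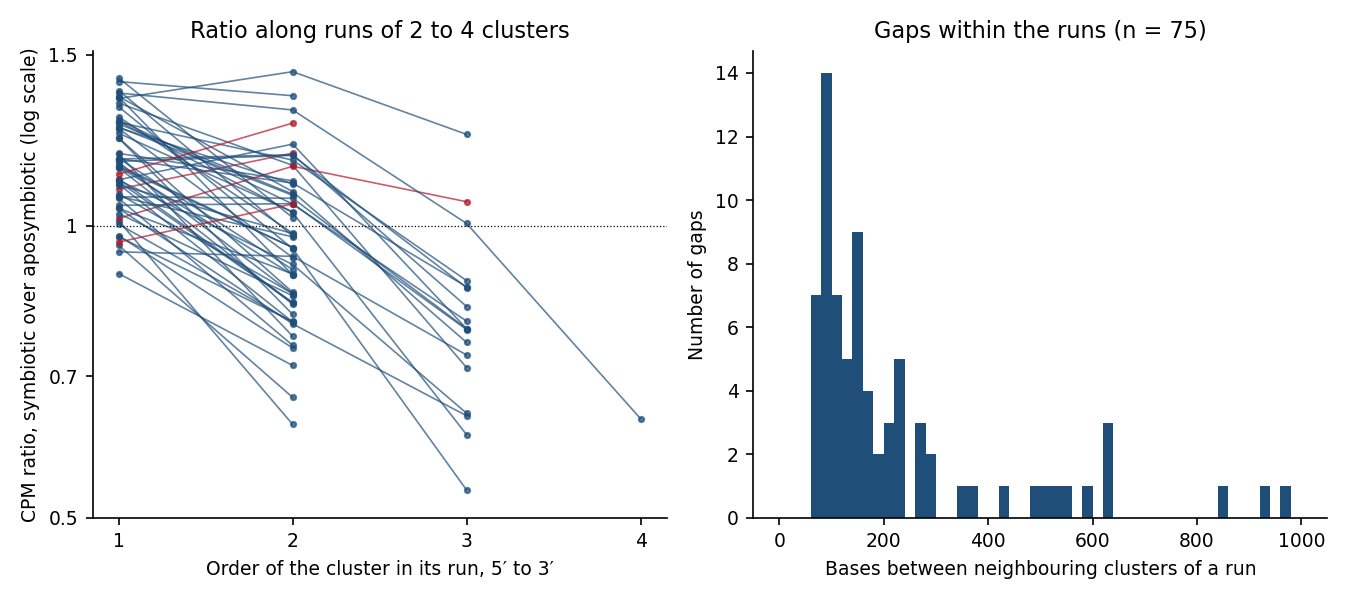
Left, the symbiotic over aposymbiotic CPM ratio (log axis) of each cluster by its order from 5′ to 3′ in the 56 runs, blue where the most 3′ cluster is below the most 5′ cluster (52 runs) and red where it is above (4 runs). Right, the number of gaps by their length in bases, with the shortest at 70 bases and the median at 152 bases.

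The dominant base inside the clusters was mostly the same in both libraries. It was identical in 214 of the 237 clusters (90.3%), against 79.7% at 100 to 500 CPM and 59.7% at 10 to 100 CPM, where fewer tags make it less certain. In the 23 clusters in which it differed, the dominant base held a median of 11.5% of the tags, and the bases that changed places lay a median of 41 bases apart. Among the 10 most used clusters it differed only in scaffold_2:7918711-7919209, where the symbiotic library had its dominant base 150 bases further 5′. There, base 7918897 took 7.67% (aposymbiotic) and 7.37% (symbiotic), and base 7918747 took 5.71% and 7.93%. The largest such step was 413 bases, in scaffold_7:17627200-17627832, between base 17627409 with 87 aposymbiotic and 242 symbiotic tags and base 17627822 with 74 and 245, so only a few tags decided which was dominant.

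Within the clusters too, symbiotic tags lay further 5′. The mean tag position was further 5′ in the symbiotic library in 199 of the 237 clusters (84.0%) and further 3′ in 38, with a median displacement of -2.85 bases (negative is 5′). That the symbiotic tags lean 5′ was looked at after the data were seen. By the median tag position 120 clusters were further 5′, 12 further 3′ and 105 the same. In the 10 most used clusters the displacement of the median tag ran from 0 bases, as on scaffold_7:7415296-7415535, to -40 bases on scaffold_1:32069580-32070073. In the classes of 100 to 500 and 10 to 100 CPM the mean was further 5′ in 70.7% and 56.0%, where fewer tags make its direction less certain. By the median tag position, 44.1% were further 5′ and 14.5% further 3′ at 100 to 500 CPM, and 34.8% and 26.0% at 10 to 100 CPM. The largest 3′ displacement, 39.7 bases, belonged to the widest cluster on scaffold_18, and the largest 5′ displacement, -35.2 bases, to scaffold_4:13058591-13059474 on the plus strand, both named after their values were seen. In the 5 sharp clusters the displacement was -0.319 bases on scaffold_7, -0.0542 on scaffold_6, -0.0415 on scaffold_9, -0.0283 on scaffold_1 and 0.627 on scaffold_3, each under 1 base and the last towards 3′.

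The tag profiles were compared by the total variation distance, which is 0 for equal shares at every base and 1 for profiles with no base in common. Its median was 0.0942 over the 237 clusters, and it was 0.0643 above 5000 CPM, 0.0849 from 1000 to 5000 CPM and 0.136 below 1000 CPM, a fall with rising counts. The lowest value was 0.0183, in scaffold_5:9142017-9142150. The 3 largest all belonged to clusters on scaffold_6 between bases 14739302 and 14819701, 2 on the plus strand and 1 on the minus strand. They held 3292, 3347 and 3944 pooled tags, among the fewer of the set, and none passed the 1.5-fold rule.

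In scaffold_6:14739302-14739662 on the plus strand (distance 0.345) the levels were 523 (aposymbiotic) and 553 CPM (symbiotic). The dominant base 14739364 held 149 of 1119 aposymbiotic tags (13.3%) and 565 of 2173 symbiotic tags (26.0%), and base 14739433 held 83 (7.42%) and 60 (2.76%). It was 208 bases wide by aposymbiotic tags and 111 by symbiotic tags. In scaffold_6:14819088-14819701 on the minus strand (distance 0.318) the levels were 582 and 536 CPM and the dominant base held 6.59% and 4.66%. In scaffold_6:14769126-14769586 on the plus strand (distance 0.292) they were 680 and 634 CPM, and aposymbiotic tags peaked at base 14769212 and symbiotic tags 14 bases further 5′, at 14769198. In all 3, the mean tag position was further 5′ in the symbiotic library, with displacements of -28.7, -27.1 and -18.8 bases.

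**Figure D4:**
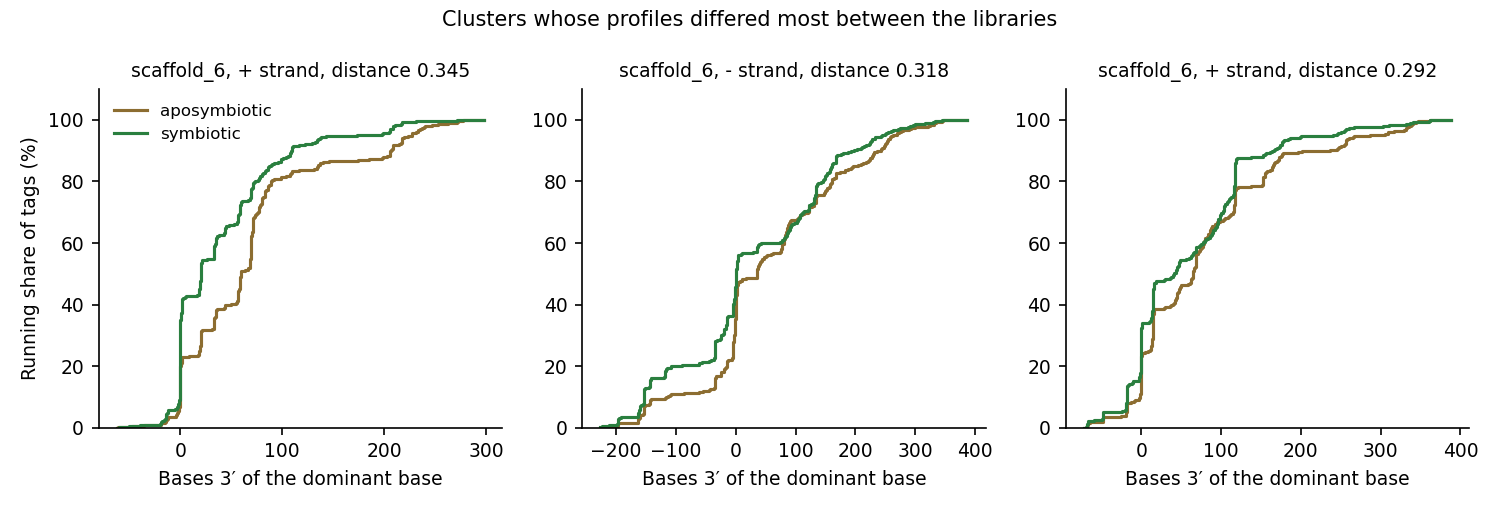
Running share of tags (%) from 5′ to 3′ against distance from the dominant base in bases for the 3 clusters with the largest distance between libraries, all on scaffold_6. The symbiotic curves run mostly above the aposymbiotic ones, most clearly in the first panel, where the dominant base holds 26.0% of symbiotic and 13.3% of aposymbiotic tags.

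The clusters lay on 20 of the 110 scaffolds that held tags, 130 on the plus and 107 on the minus strand. Scaffold_2 had 33, scaffold_1 25, scaffold_5 and scaffold_6 23 each and scaffold_7 20. As a share of the clusters of at least 10 CPM on a scaffold, they ranged from 2.30% on scaffold_9 to 9.83% on scaffold_8 among the scaffolds with over 100 such clusters. Small scaffolds held a few: scaffold_155, on which no tag lay beyond base 16197, had 4 of its 17 clusters in the set, and the single cluster of scaffold_139 with at least 10 CPM, scaffold_139:24059-24206 (plus strand), reached 1713 CPM without and 1441 CPM with algae.

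Tags of these clusters lay almost wholly on 1 strand. On the opposite strand within their bounds lay 33 tags in all, in 16 clusters, and the highest share was 0.0498% of a cluster's tags. No cluster of the set had another on the opposite strand within 1000 bases. The nearest such neighbours were 2505 bases apart on scaffold_1, where scaffold_1:13713090-13713469 on the minus strand and scaffold_1:13715975-13716140 on the plus strand pointed away from each other. On their own strand, tags within 1000 bases upstream came to a median of 2.61% of the cluster's own tags and those within 1000 bases downstream to 8.78%. These shares were under 1% in 101 clusters upstream and in 77 downstream, so many had few tags beside them while others, as in the runs, had strong neighbours.

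In the authors' cluster lists, 185 of the 237 matched exactly 1 aposymbiotic and 210 exactly 1 symbiotic entry, and the others were divided into up to 11 and 3 entries. The listed strand was opposite to that of the tags in 3 aposymbiotic and 7 symbiotic cases, with 24177 and 192842 listed tags. These included the most used cluster of all in the symbiotic list (113128 listed tags), although nearly all its tags lay on the minus strand, and the listed strand was therefore not used.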

How the data were processed

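Per the submitters' processing notes reads were handled with fastp 1.1.0 and STAR 2.7.11b. Build of the genome, annotation, counting tool and treatment of duplicates were not given in the sources used here. The authors deposited raw counts of tags per base and strand, and raw counts summed over clusters of at least 5 tags. Per the labels' protocols, 5′ ends were decapped, ligated to a biotinylated dinucleotide and captured, and the RNA integrity number was 10.

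Tags of both libraries were pooled by scaffold, strand and base, joined (at most 20 bases between) and scaled by library totals to CPM. The ratio is symbiotic over aposymbiotic CPM. Calls use CPM + 1 and 1.5-fold. Background clusters have at least 10 pooled CPM. Bases count from 1, as in a genome browser. The clusters and measures were chosen with earlier results of these data known.

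Named are the 10 clusters with most tags, the 3 extremes of ratio, width, dominant share and distance, runs within 1000 bases, and the neighbours of the minimum. Runs were illustrated by examples chosen after their values were seen. Displacement of the mean tag, gaps and order within runs were added after the data were seen. Alternatives covered joining, minimum, low counts, percentiles, peak rule, scaling (edgeR 4.0.16 TMM factors in R 4.3.3) and dominant bases. Counting rules were tested on simulated data. Tables were handled in Python 3.11.15 with pandas 2.3.3 and numpy 2.4.6, intervals came from scipy 1.17.1 and plots from matplotlib 3.10.9.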

Additional observations from a re-analysis of the deposited data

How the results depend on the processing

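Of 97 values of the main results under alternatives, 82 stayed close and 15 moved, meaning a count beyond 1.5 times, or a median or share beyond its 95% interval. With at most 10 bases joined, 0 clusters were 1.5-fold higher. A minimum of 1000 CPM left 162 clusters, 5 of them lower, against 12 of 237 at the minimum used. A minimum of 250 CPM gave 358 clusters, more by construction, with 2 higher and 33 lower. The share of lower calls thus rose as the minimum fell. The median width was 148 bases from the 5th to the 95th percentile and 65 bases from the 25th to the 75th. Single-peak shares were 5.06% with peaks from 10% of the dominant base, 45.6% from 50% and 24.5% with peaks 20 bases apart, against 18.1%, so the number of peaks depends on its definition. By the dominant base alone 5 clusters were at least 1.5-fold higher and 21 lower. These counts were not set beside the background, and their cause was not tested. With all tags of a cluster and a 2-fold rule, 0 were higher and 0 lower. The mean tag lay further 5′ in 84.0% of clusters, and with the median tag, added once the data had been seen, in 50.6%, where ties are possible. Other scalings moved no call count by over 1.5 times, and of 135 log2 ratios of 27 named clusters 46 moved beyond the counting interval, but no ratio past 1.5-fold changed sign. Smaller ratios did: without the dominant base, log2 values went from 0.02 to -0.06 (scaffold_4 from 4468605), 0.08 to -0.15 (scaffold_6 from 14739302) and 0.04 to -0.03 (scaffold_7 from 14532026), and by the dominant base alone from -0.10 to 0.25 (scaffold_6 from 14769126). The second was 1.04 by its dominant base alone. These 4 have no settled direction. No paired analysis was possible because both conditions have 1 library, so none could be left out. No initiator sequence or gene context was analysed here.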
